A study of Mus musculus with 6 samples.

Results

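The genes described here are *Nfe2l2*, which encodes the transcription factor NRF2, its inhibitor *Keap1*, and 8 genes known as NRF2 targets, *Hmox1*, *Nqo1*, *Gclc*, *Gclm*, *Txnrd1*, *Srxn1*, *Slc7a11* and *Gsr*. They were chosen by name as textbook members of the antioxidant response, though with earlier results of these data known. All 10 were found among the 54532 genes of the expression table. RNA-sequencing compared leukemia cells with and without *Phf6*, an X-linked gene for a chromatin-associated PHD finger protein. All mice carried AML driven by the RE9a-GFP retrovirus, which expresses RUNX1-ETO9a, a truncated form of the RUNX1-ETO fusion, together with green fluorescent protein. *WT Phf6,RE9a* cells were *Phf6 fl/y* and kept the floxed gene, and *VC Phf6,RE9a* cells were *Vav1-Cre;Phf6 fl/y*, in which Cre under the *Vav1* promoter deletes *Phf6* throughout the blood lineages. In both groups, lineage-negative fetal liver cells of male donors were transduced and serially transplanted into male recipients, and GFP+ cells were sorted from recipient bone marrow. There were 3 libraries per group, numbered 1, 2 and 3 for *WT Phf6,RE9a* and 11, 12 and 13 for *VC Phf6,RE9a*. The labels give neither the age of the animals nor the passage. Nothing in them tells if libraries within a group are from separate mice, so p-values measure only the spread between these libraries.

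NRF2 is held at a low level by KEAP1, which presents it to a CUL3 ubiquitin ligase for degradation. Oxidants and electrophiles modify cysteines of KEAP1, NRF2 then accumulates, pairs with a small MAF protein in the nucleus and binds antioxidant response elements near its target genes. Much of this control acts on the protein, so the mRNA of *Nfe2l2* is not a readout of NRF2 activity. The targets supply glutathione (*Slc7a11*, *Gclc*, *Gclm*), return oxidized glutathione, thioredoxin and peroxiredoxin to their active forms (*Gsr*, *Txnrd1*, *Srxn1*), reduce quinones (*Nqo1*) and break down heme (*Hmox1*). In blood cells the pathway is known for limiting oxidative damage, and in myeloid leukemia for protection against oxidative stress and drugs.

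The 10 genes did not move together. *Nqo1*, *Gsr* and *Gclm* were higher in *VC Phf6,RE9a* cells, *Nfe2l2*, *Txnrd1*, *Srxn1* and *Gclc* were lower, and *Keap1*, *Hmox1* and *Slc7a11* did not pass the test. The threshold was an adjusted p of 0.05 from edgeR's quasi-likelihood test, adjusted over the 14169 genes tested, and errors of log2 fold changes are standard errors (SE) of that fit. All 10 members passed the filter on low counts, and 7 of them were called, where 44.2% of all genes tested were called. The 3 genes called higher stand beside 21.5% of all genes, and the 4 called lower beside 22.7%. The median log2 fold change was -0.049 over the members and 0.013 over all genes tested. The libraries of both groups did not overlap in 8 of the 10 genes (57.3% of all genes tested), with *VC Phf6,RE9a* above in 4 (28.9%) and below in 4 (28.4%). Among the called members, 0 were higher by at least 2-fold, where 9.95% of all genes tested were, and *Srxn1* was lower by at least 2-fold, where 11.5% were.

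*Phf6*, the deleted gene, had 1044, 827 and 1142 counts in *WT Phf6,RE9a* and 388, 314 and 331 in *VC Phf6,RE9a* libraries (log2 fold change -1.66, SE 0.13, adjusted p = 9.32e-05). It was low in all *VC Phf6,RE9a* libraries but not at 0. Library totals ran from 15675358 to 16817994 counts. Blast markers (*Ptprc*, *Spi1*, *Cd34*, *Kit*, *Mpo*, *Elane*, *Myb*, *Runx1t1*) were present in both groups, all 8 above 1 CPM (counts scaled to library size), with a summed level of 2670 to 4018 CPM in *WT Phf6,RE9a* and 846 to 1129 CPM in *VC Phf6,RE9a*. They went both ways, with 3 of 8 called higher (*Mpo*, *Elane*, *Runx1t1*) and 3 lower (*Cd34*, *Kit*, *Myb*), and *Kit* at 2420 and 273 CPM made up most of the fall of the sum. *Runx1t1* encodes ETO, a part of the fusion in the retrovirus, and whether its reads come from the retrovirus was not tested. Markers of other lineages moved with genotype. The sum of 11 neutrophil markers was 160 to 493 CPM against 993 to 3758 CPM and all 11 were called higher. The sum of 10 erythroid markers was 1643 to 2411 CPM against 5563 to 6527 CPM, again with all 10 called higher. Mast cell and basophil markers summed to 16256 to 26855 CPM against 3881 to 4209 CPM, with 9 of 10 called lower. *Kit*, counted above as a blast marker, fell together with them, so the fall of the blast sum cannot be read apart from this shift. Smaller sums were seen for macrophage markers (28.9 to 39.1 against 54.1 to 59.3 CPM, 3 of 12 called higher), B cell markers (4.80 to 18.3 against 33.6 to 100.2 CPM, 5 of 8 called higher) and T cell markers (1.3 to 2.06 against 6.71 to 9.39 CPM, only *Lck* above 1 CPM). No marker on these lists was at 0 in all 6 libraries, though *Marco* was at 0 in *VC Phf6,RE9a*. Every difference described for the members sits beside these shifts, whose part in them was not tested, and in such bulk samples fewer cells of a type and less RNA per cell cannot be told apart.

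NRF2 with a small MAF protein recognizes the core TGACNNNGC of the antioxidant response element, in which N is any base. RefSeq promoters on GRCm38.p6, from 250 bases before to 50 after the start of a transcript, were available for 7 members, and both strands were searched. The core was found in 4 of these 7 genes, against 13.99% of all 27025 genes with a promoter, and in 4 of their 9 promoters, against 12.39% of all 32851 promoters. The matches are shown with 10 bases on each side, since the 4 genes that hold one did not share a direction, and capitals mark the core.
*Gclm*, chr3:122245413-122245441, minus strand: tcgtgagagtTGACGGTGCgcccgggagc
*Nfe2l2*, chr2:75704885-75704913, minus strand: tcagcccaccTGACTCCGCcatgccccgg
*Srxn1*, chr2:152105542-152105570, minus strand: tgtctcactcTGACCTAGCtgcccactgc
*Txnrd1*, chr10:82859104-82859132, minus strand: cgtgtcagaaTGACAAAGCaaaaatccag
Counted from the start of the transcript, the core spans bases -134 to -126 in *Gclm*, -240 to -232 in *Nfe2l2*, 29 to 37 in *Srxn1* and -92 to -84 in 1 of 3 *Txnrd1* promoters. *Gclm* was higher in *VC Phf6,RE9a* cells, and *Nfe2l2*, *Srxn1* and *Txnrd1* were lower. *Keap1*, *Nqo1* and *Slc7a11* had no match in this window, and *Gclc*, *Gsr* and *Hmox1* were not searched. The more specific form TGACTCAGC, a special case of the core, was in no member promoter and in 0.4536% of all promoters. These matches describe letters and not binding.

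**Figure D1:**
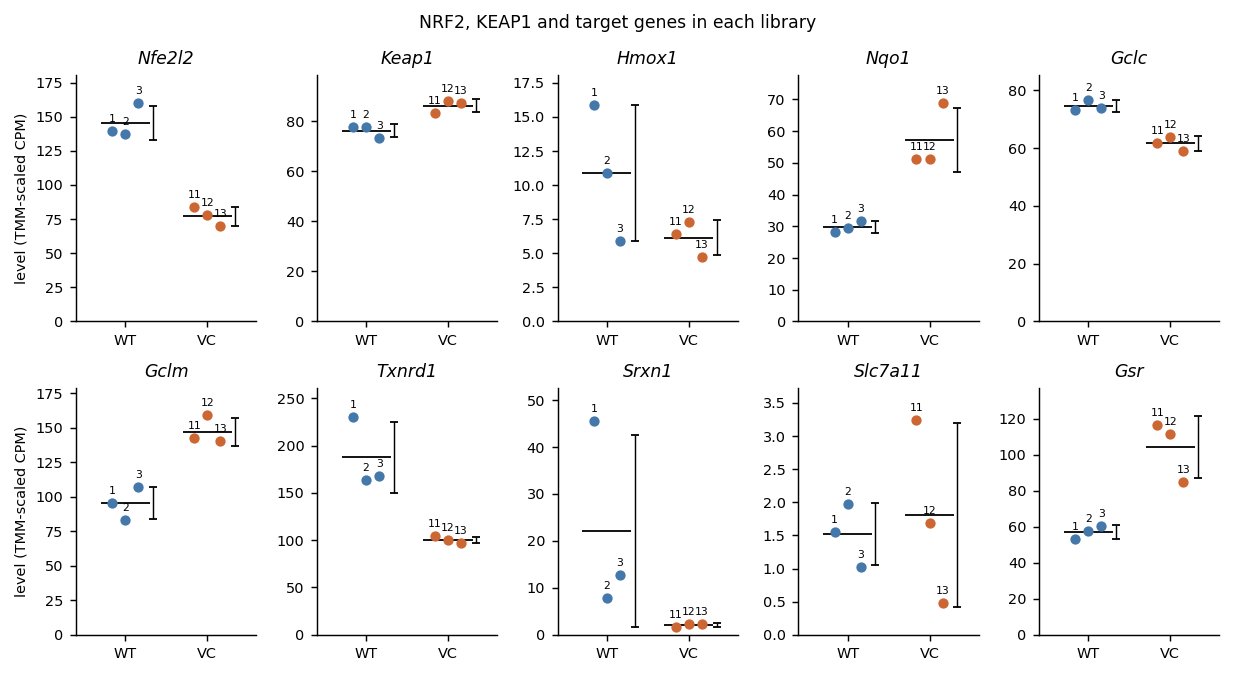
Level of each of the 10 genes in each library, in TMM-scaled CPM on axes that start at 0, for *WT Phf6,RE9a* and *VC Phf6,RE9a*; each point is 1 library with its replicate number, each horizontal line the mean of the group and each bar its SD (n = 3). *Nqo1*, *Gsr* and *Gclm* separate upward and *Nfe2l2*, *Txnrd1*, *Gclc* and *Srxn1* downward, and *Srxn1* has 1 library far above the rest at 45.6 CPM.

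*Nfe2l2* (chr2:75675513-75704641) fell. It was read at 139, 138 and 160 CPM in *WT Phf6,RE9a* and at 83.7, 77.8 and 69.9 CPM in *VC Phf6,RE9a* libraries, after TMM scaling of the library sizes. Every *VC Phf6,RE9a* library lay below every *WT Phf6,RE9a* library. The mean went from 146 ± 12.4 to 77.1 ± 6.89 CPM (SD, n = 3 each), a log2 fold change of -0.92 (SE 0.10, adjusted p = 0.000398).

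*Keap1* (chr9:21229730-21239361), the substrate adaptor that marks NRF2 for degradation, stood at 77.6, 77.8 and 73.2 CPM against 83.1, 88.1 and 87.3 CPM. The *VC Phf6,RE9a* libraries were the higher ones without overlap, but by a margin too narrow for the test. The log2 fold change was 0.18 (95% confidence interval 0.0018 to 0.35) with an adjusted p of 0.0931. An antisense gene, *Gm16754*, shares 510 exonic bases with *Keap1* and had 15 to 77 counts per library. *Keap1* had 1146 to 1512, so even all reads of the antisense gene would be a small part of it.

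Because the levels of the inhibitor and the factor went apart, their ratio was computed from FPKM (fragments per kilobase of gene length, scaled to library size), which compares genes per length. That length spans all annotated exons of a gene, so which gene of a pair stands above the other depends on it. The change of a ratio between the groups does not. *Keap1* over *Nfe2l2* was 0.451, 0.457 and 0.370 in *WT Phf6,RE9a* and 0.803, 0.916 and 1.01 in *VC Phf6,RE9a* libraries. The groups were well apart, with a mean log2 ratio 1.09 higher in *VC Phf6,RE9a*, or 2.14-fold. The exact 2-sided permutation test gave p = 0.1, the smallest that 3 against 3 libraries allow. Ratios of this kind were formed for 3 pairs, picked after the values were seen, and each gave this p, also after Benjamini-Hochberg adjustment.

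**Figure D2:**
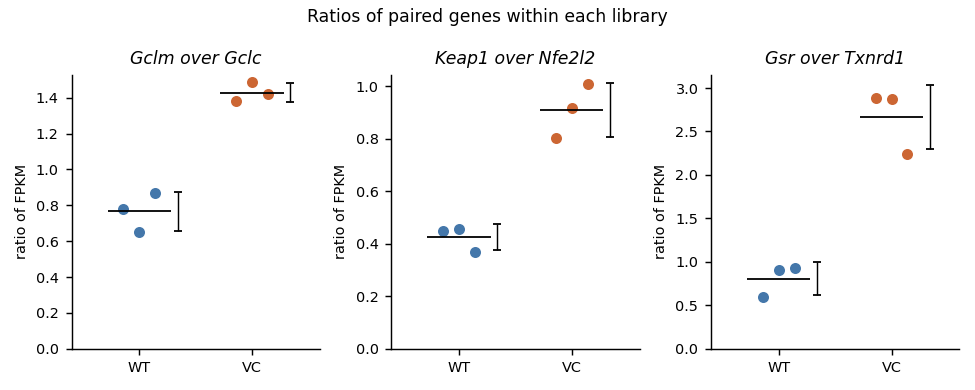
Ratio of FPKM values within each library for *Gclm* over *Gclc*, *Keap1* over *Nfe2l2* and *Gsr* over *Txnrd1*, on axes that start at 0; points are libraries, lines are group means and bars are SD (n = 3). In each of the 3 pairs all *VC Phf6,RE9a* libraries lie above all *WT Phf6,RE9a* libraries, with mean ratios of 1.43 against 0.766, 0.910 against 0.426 and 2.67 against 0.807.

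Glutathione is made in a first, rate-limiting step by glutamate-cysteine ligase, whose catalytic subunit is *Gclc* and whose modifier subunit, *Gclm*, makes the enzyme more efficient. These subunits went in opposite directions. *Gclc* (chr9:77754535-77794485) was at 73.1, 76.8 and 73.7 CPM in *WT Phf6,RE9a* and 61.8, 63.9 and 59.1 CPM in *VC Phf6,RE9a* libraries. The groups did not overlap, and both were tight. The fall from 74.5 ± 1.98 to 61.6 ± 2.44 CPM was small, a log2 fold change of -0.28 (SE 0.078, adjusted p = 0.0228). It was no longer called when replicate 11 (adjusted p = 0.0864), 12 (0.0544) or 13 (0.0979) of *VC Phf6,RE9a* was left out, or with no filter on low counts (0.0601).

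*Gclm* (chr3:122245557-122270732) rose. Its libraries stood at 95.2, 83.4 and 107 CPM against 142, 159 and 140 CPM. All *VC Phf6,RE9a* libraries were above the highest *WT Phf6,RE9a* library. The mean went from 95.1 ± 11.6 to 147 ± 10.2 CPM (log2 fold change 0.63, SE 0.11, adjusted p = 0.00299). *Gclm* shares 296 exonic bases with *Gm17494* on the other strand, which was called higher as well but had only 12 to 67 counts per library, where *Gclm* had 1230 to 2726.

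By FPKM, the modifier subunit went from below to above the catalytic subunit. The ratio of *Gclm* to *Gclc* FPKM was 0.780, 0.650 and 0.866 in *WT Phf6,RE9a* and 1.38, 1.49 and 1.42 in *VC Phf6,RE9a* libraries. It was below 1 in all of the former and above 1 in all of the latter, and the mean log2 ratio differed by 0.91, or 1.88-fold (exact 2-sided permutation p = 0.1).

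*Slc7a11* (chr3:49892526-50443614), the cystine importer that feeds glutathione synthesis, was hardly expressed, in the lowest 0.953% of the genes tested by FPKM. It had counts of 24, 29 and 17 in *WT Phf6,RE9a* and 55, 29 and 8 in *VC Phf6,RE9a* libraries. The highest and the lowest library were both of *VC Phf6,RE9a*, so the groups overlapped. The log2 fold change was 0.25 with a 95% confidence interval of -1.17 to 1.68 (adjusted p = 0.766), which leaves a change in either direction within its range at this depth. Leaving out replicate 11 turned it to -0.47 (adjusted p = 0.582). The neutrophil marker sum was 3758, 2426 and 993 CPM in replicates 11, 12 and 13, with the highest and lowest value in the same libraries as for *Slc7a11*, and the part of such cells was not tested.

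*Gsr* (chr8:33652523-33698163), glutathione reductase, which returns oxidized glutathione to its reduced form with NADPH, rose. It was at 52.9, 57.8 and 60.3 CPM against 116, 111 and 84.8 CPM. The groups did not overlap, and replicate 13 was the lowest of the *VC Phf6,RE9a* libraries. The neutrophil marker sums of replicates 11, 12 and 13 had the same order (3758, 2426 and 993 CPM), and the part of such cells was not tested. The mean went from 57.0 ± 3.78 to 104 ± 17.0 CPM, a log2 fold change of 0.87 (SE 0.13, adjusted p = 0.00157).

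*Txnrd1* (chr10:82833951-82897712), the cytosolic thioredoxin reductase that does the parallel task for thioredoxin, fell. The libraries stood at 231, 164 and 168 CPM against 104, 99.7 and 97.4 CPM. Replicate 1 was the highest, and the groups did not overlap with or without it. The mean went from 187 ± 37.4 to 100.4 ± 3.38 CPM, a log2 fold change of -0.90 (SE 0.14, adjusted p = 0.00170).

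By FPKM, the 2 NADPH-dependent reductases therefore changed places. *Gsr* over *Txnrd1*, in FPKM, was 0.590, 0.908 and 0.924 in *WT Phf6,RE9a* and 2.88, 2.88 and 2.24 in *VC Phf6,RE9a* libraries. *Txnrd1* had the higher FPKM in every *WT Phf6,RE9a* library and *Gsr* in every *VC Phf6,RE9a* library. The lengths used were 7086 bases for *Txnrd1* and 2754 for *Gsr*, all annotated exons together, so this order depends on them. The mean log2 ratio was 1.74 higher in *VC Phf6,RE9a*, or 3.35-fold (exact 2-sided permutation p = 0.1), and this difference stayed between 1.53 and 1.86 when each library was left out in turn.

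*Srxn1* (chr2:152105516-152111376), sulfiredoxin, which repairs overoxidized peroxiredoxins, had the largest fold change of the 10 genes. It had 703, 116 and 212 counts in *WT Phf6,RE9a* and 28, 39 and 39 in *VC Phf6,RE9a* libraries, or 45.6, 7.87 and 12.8 CPM against 1.65, 2.27 and 2.32 CPM. All *VC Phf6,RE9a* libraries were below all others, and replicate 1 stood far above the other *WT Phf6,RE9a* libraries. The log2 fold change was -3.40 (SE 0.66, adjusted p = 0.00490), a 10.6-fold lower level. Without replicate 1 it was 4.98-fold lower (log2 fold change -2.32, SE 0.32, adjusted p = 0.00251). On the log2(FPKM + 1) scale, which understates the change of low genes, limma gave 4.11-fold lower (adjusted p = 0.0179). Direction and call held in these fits, while the size moved.

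*Nqo1* (chr8:107388225-107403206), the quinone reductase often used as a marker of NRF2 activity, rose. It was at 28.2, 29.4 and 31.8 CPM against 51.4, 51.3 and 68.7 CPM. The groups did not overlap, and replicate 13, the lowest of its group for *Gsr*, was the highest for *Nqo1*. The mean went from 29.8 ± 1.80 to 57.1 ± 10.1 CPM (log2 fold change 0.94, SE 0.14, adjusted p = 0.00136). The rises of *Nqo1* and *Gsr* lay within their errors of each other, and without replicate 13 they were 0.78 and 1.00.

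*Hmox1* (chr8:75093621-75100589), heme oxygenase, which breaks heme down to biliverdin, iron and carbon monoxide and is also repressed by BACH1, was at 15.9, 10.9 and 5.93 CPM against 6.44, 7.28 and 4.75 CPM. The groups overlapped, since replicate 3 of *WT Phf6,RE9a* was as low as the *VC Phf6,RE9a* libraries. With means of 10.9 ± 4.99 and 6.16 ± 1.29 CPM, the log2 fold change of -0.82 (SE 0.36) did not pass the test (adjusted p = 0.0997). It passed without replicate 3 (-1.13, adjusted p = 0.0160) and was smaller without replicate 1 (-0.46, adjusted p = 0.323).

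**Figure D3:**
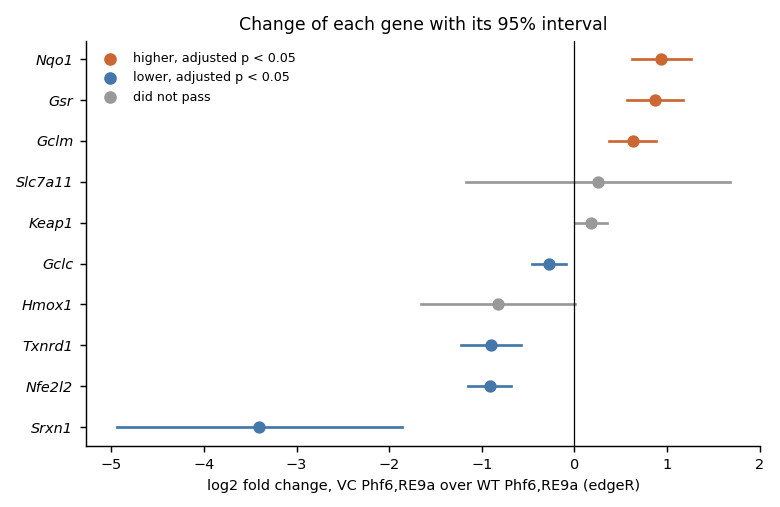
Log2 fold change of each of the 10 genes, *VC Phf6,RE9a* over *WT Phf6,RE9a*, from edgeR, with 95% confidence intervals; colour gives whether the adjusted p was under 0.05. The intervals of *Nqo1* (0.62 to 1.26), *Gsr* (0.57 to 1.17) and *Gclm* (0.38 to 0.88) lie above 0 and that of *Nfe2l2* (-1.15 to -0.68) lies below 0, while those of *Slc7a11* and *Hmox1* span 0.

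By FPKM, whose order of genes depends on the length used, *Nfe2l2* was the highest of the 10 genes in *WT Phf6,RE9a* cells (38.1 ± 3.11 FPKM) and *Txnrd1* the next (26.3 ± 5.40 FPKM). *Gsr*, *Gclc* and *Nqo1* followed at 20.6, 19.7 and 19.1 FPKM, with overlapping libraries, and then *Keap1* (16.1 FPKM) and *Gclm* (15.02 ± 1.81 FPKM), which overlapped too. In *VC Phf6,RE9a* cells the order was another: *Gsr* (37.4 ± 6.24 FPKM) and *Nqo1* (36.3 ± 6.20 FPKM) led, and their libraries overlapped. *Gclm* (23.1 ± 1.73 FPKM) came next, and *Nfe2l2* (20.1 ± 1.85 FPKM) overlapped with *Keap1* (18.1 FPKM). *Gclc* (16.1 FPKM) and *Txnrd1* (13.98 ± 0.50 FPKM) stood lower. *Hmox1*, *Srxn1* and *Slc7a11* had the 3 lowest means in both groups, at 6.21, 7.82 and 0.108 FPKM in *WT Phf6,RE9a* and 3.47, 0.728 and 0.128 FPKM in *VC Phf6,RE9a*. The *WT Phf6,RE9a* mean of *Srxn1* was carried by replicate 1, with 16.2, 2.77 and 4.50 FPKM in replicates 1, 2 and 3. In replicate 1 *Srxn1* lay above *Gclm* (15.1 FPKM).

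Replicate 1 of *WT Phf6,RE9a* was looked at further because of *Srxn1*. Its level over the mean of replicates 2 and 3 was 4.41 for *Srxn1*, 1.89 for *Hmox1* and 1.39 for *Txnrd1*. For *Nqo1*, *Gsr* and *Gclc* the same library was instead the lowest of its group. Over all 10 members it was the highest *WT Phf6,RE9a* library for 3, beside 30.4% of all genes tested. It was more than 1.5-fold above the mean of the other libraries for 2 members, beside 7.04% of all genes. These were *Hmox1* and *Srxn1*, and since *Srxn1* prompted the look, its count is no independent comparison. Among 88 tested genes of the further lists described below, replicate 1 was the highest for 34 (38.6%) and over 1.5-fold for 6 (6.82%).

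**Figure D4:**
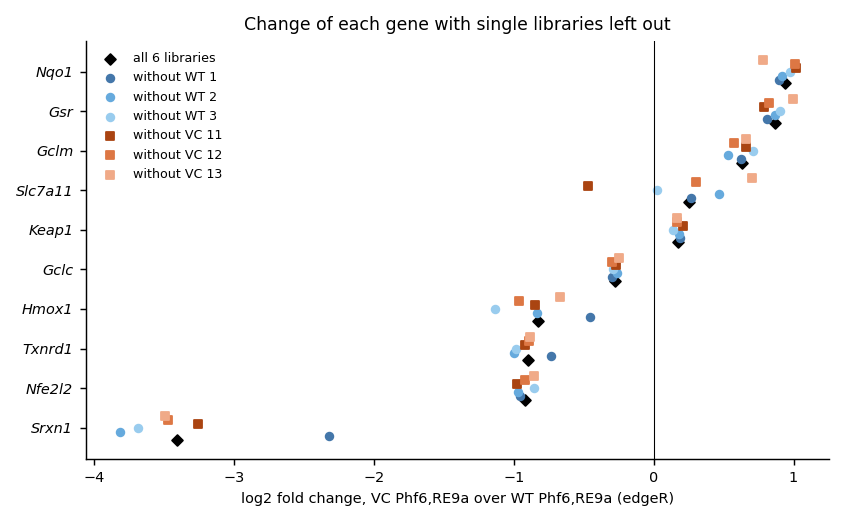
Log2 fold change of each of the 10 genes with all 6 libraries and with each library left out in turn; points are the fits. *Srxn1* moves between -3.82 and -2.32 and *Slc7a11* crosses 0, and the genes called higher or lower with all 6 libraries keep their direction.

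The partners and regulators of NRF2 also split. Of 14 genes, all tested, 5 were higher, 4 were lower and 5 did not pass the test, with a median log2 fold change of -0.01. The share called was 64.3%, beside 44.2% of all genes tested (21.5% higher, 22.7% lower). When each library was left out in turn, 2 to 3 genes of this list were lower instead of 4. *Sqstm1*, the autophagy receptor p62, which binds KEAP1 and so frees NRF2, fell from 1069 ± 514 to 243 ± 28.3 CPM (log2 fold change -2.14, SE 0.32, adjusted p = 0.00160). Its counts were 25086, 14162 and 10205 against 4665, 3808 and 3914, so that every *WT Phf6,RE9a* library was above every *VC Phf6,RE9a* library, with replicate 1 again the highest. *Nfe2*, an erythroid and megakaryocytic relative of NRF2 that uses the same small MAF partners, rose from 91.6 ± 19.4 to 227 ± 10.8 CPM (log2 fold change 1.31, adjusted p = 0.000463). *Btrc*, the adaptor of a KEAP1-independent route of NRF2 degradation, rose from 127 ± 10.5 to 276 ± 27.0 CPM (log2 fold change 1.12, adjusted p = 0.000197).

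Further genes of this list were picked after their values were seen. *Bach1*, the repressor that competes for antioxidant response elements, rose from 103 ± 9.86 to 179 ± 25.6 CPM (log2 fold change 0.81, adjusted p = 0.00184). *Mafg*, a small MAF partner, fell from 112 ± 24.8 to 71.4 ± 4.86 CPM (log2 fold change -0.65, adjusted p = 0.0113). The other small MAF genes of the list did not pass, *Mafk* at 0.27 (adjusted p = 0.228) and *Maff* at -0.29 (adjusted p = 0.550). Neither did *Bach2* (-0.38, adjusted p = 0.286) or *Fbxw11* (0.077, adjusted p = 0.423), while *Gsk3b* was called lower (-0.34, adjusted p = 0.0439). Of the ligase that works with KEAP1, the RING subunit *Rbx1* rose (0.72, adjusted p = 0.000996) and the scaffold *Cul3* had a log2 fold change of -0.10 (adjusted p = 0.471).

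**Figure D5:**
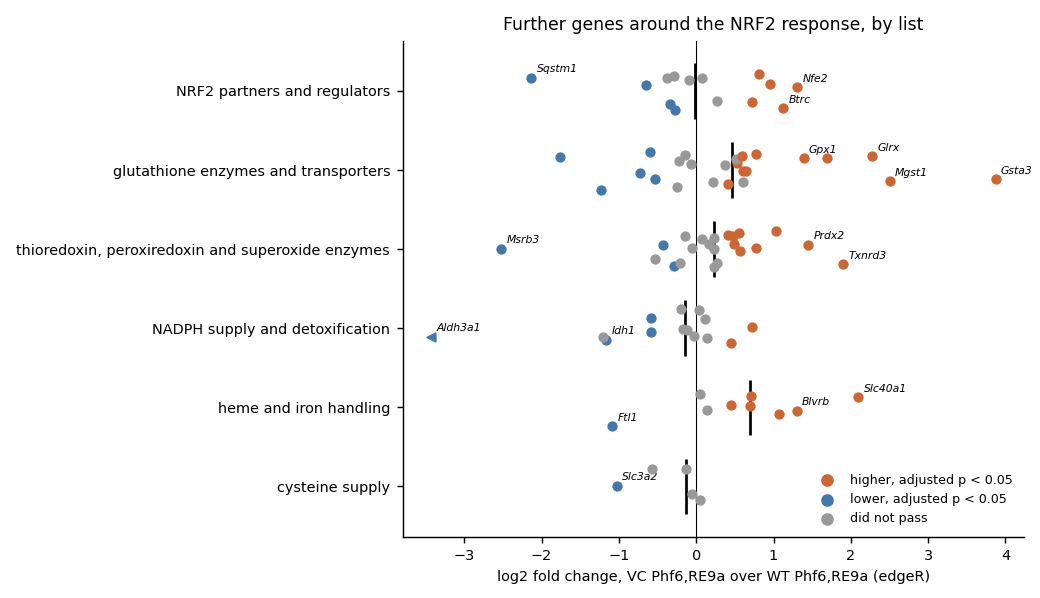
Log2 fold change, *VC Phf6,RE9a* over *WT Phf6,RE9a*, of each tested gene of 6 further lists; points are genes, vertical bars the median of a list, colour the call at an adjusted p of 0.05, and the triangle a gene read at 0 in all *VC Phf6,RE9a* libraries, drawn at its bound of at least 10.8-fold lower. Each list but cysteine supply holds called genes of both directions, and *Gsta3* at 3.87 is the farthest to the right.

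Of 36 genes for glutathione enzymes and transporters, 24 were tested, and 11 were higher, 5 lower and 8 did not pass (66.7% called, median log2 fold change 0.47). Over all genes tested, 44.2% were called, 21.5% higher and 22.7% lower. *Gpx1*, the main cytosolic glutathione peroxidase, rose from 1063 ± 101 to 2785 ± 169 CPM (log2 fold change 1.39, adjusted p = 0.000141). *Gpx4*, which reduces lipid peroxides in membranes, had 212 ± 20.9 and 179 ± 9.36 CPM (-0.25, adjusted p = 0.0731). It passed without replicate 3 of *WT Phf6,RE9a* (-0.33, adjusted p = 0.0169). *Gsta3*, a glutathione transferase with near-identical relatives, had 2, 8 and 7 counts against 90, 85 and 102 (log2 fold change 3.87, SE 0.43, adjusted p = 0.000383). These groups were far apart at low counts.

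*Mgst1*, a membrane-bound transferase, was at 0.844, 1.29 and 1.94 CPM against 12.5, 6.88 and 3.92 CPM (log2 fold change 2.50, adjusted p = 0.00531). *Glrx*, glutaredoxin, was at 1.75, 0.475 and 2.84 CPM against 13.05, 8.80 and 3.03 CPM (2.28, adjusted p = 0.0280). For both genes replicate 11 was the highest and 13 the lowest of its group, as were the neutrophil marker sums of 3758 and 993 CPM, and the part of neutrophils was not tested. *Glrx* was not called without replicate 1 (adjusted p = 0.0740), 2 (0.0515), 11 (0.0946) or 12 (0.0705). Its log2 fold change was 2.87 without replicate 3.

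Among 22 tested genes of the thioredoxin, peroxiredoxin and superoxide enzymes, 9 were higher, 3 lower and 10 did not pass (54.5% called, median log2 fold change 0.23). Beside this stand 44.2% called over all genes tested, 21.5% higher and 22.7% lower. *Prdx2*, a peroxiredoxin abundant in red cells, stood at 220 ± 57.7 and 599 ± 6.001 CPM (log2 fold change 1.44, SE 0.18, adjusted p = 0.000700). Erythroid markers went the same way, with sums of 1643 to 2411 against 5563 to 6527 CPM, and their part in the result was not tested. *Prdx3*, the mitochondrial peroxiredoxin, rose from 344 to 504 CPM (0.55, adjusted p = 0.00642), and *Txnip*, the inhibitor of thioredoxin, from 440 to 618 CPM (0.49, adjusted p = 0.0117). *Msrb3*, a methionine sulfoxide reductase, fell from 4.09 to 0.706 CPM (-2.52, adjusted p = 0.00162). *Txnrd3*, a relative of *Txnrd1*, rose from a low 2.75 to 10.3 CPM (1.90, adjusted p = 0.0394), a call lost without replicate 11 (adjusted p = 0.0779), 12 (0.0893) or 13 (0.0880). Its counts were 6, 55 and 68 against 157, 175 and 192, with replicate 1 far below the other *WT Phf6,RE9a* libraries. With single libraries left out, its log2 fold change went down to 1.38.

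NADPH supply and detoxification had 14 tested genes, of which 2 were higher, 4 lower and 8 did not pass (42.9% called, median log2 fold change -0.14). The share called was close to that of all genes tested, 44.2% (21.5% higher, 22.7% lower). *Taldo1*, of the pentose phosphate pathway, rose from 318 to 434 CPM (0.45, adjusted p = 0.00662), and *Ptgr1*, which reduces reactive alkenals, from 45.4 to 75.2 CPM (0.73, adjusted p = 0.0187). The call for *Ptgr1* was lost without replicate 1 (adjusted p = 0.0596), 2 (0.0529) or 12 (0.0696). *Idh1*, a cytosolic source of NADPH, fell from 39.7 to 17.8 CPM (-1.16, adjusted p = 0.000401). *Aldh3a1*, an aldehyde dehydrogenase, had 51, 16 and 22 counts in *WT Phf6,RE9a* and 0 in each *VC Phf6,RE9a* library (adjusted p = 0.00326). Against a floor of 3 counts per library it was at least 10.8-fold lower, or 6.84-fold without replicate 1. The abundant aldehyde reductase *Akr1a1* was at 338 and 301 CPM (-0.17, adjusted p = 0.127).

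Heme and iron handling had 9 genes, all tested, with 6 higher, 1 lower and 2 not passing (77.8% called, median log2 fold change 0.70). Of all genes tested, 44.2% were called, 21.5% higher and 22.7% lower. When each library was left out in turn, 4 to 5 genes of this list were higher instead of 6. *Blvrb*, a biliverdin reductase expressed in red cells, rose from 151 to 372 CPM (1.30, adjusted p = 0.000209), and *Slc40a1*, the iron exporter ferroportin, from 3.04 to 12.97 CPM (2.09, adjusted p = 0.00100). *Slc40a1* is also high in erythroid cells and macrophages, whose marker sums were 1643 to 2411 against 5563 to 6527 CPM and 28.9 to 39.1 against 54.1 to 59.3 CPM, and their part was not tested. The ferritin chains, which have many processed copies and are uncertain for that reason, parted. *Fth1* went from 1170 to 1593 CPM (0.45, adjusted p = 0.0182), lost without replicate 1 (adjusted p = 0.0520), 11 (0.0606), 12 (0.0519) or 13 (0.0611) and on FPKM with limma (0.164). *Ftl1* fell from 858 ± 227 to 403 ± 28.4 CPM (-1.09 (SE 0.19, adjusted p = 0.00282).

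Cysteine supply had 5 tested genes besides *Slc7a11*. None was called higher by edgeR or by DESeq2, with 0 higher at an unadjusted p under 0.05 too, 1 was lower and 4 did not pass (20.0% called, median log2 fold change -0.13). Called shares of all genes tested were 44.2%, with 21.5% higher and 22.7% lower. *Slc3a2*, the heavy chain that pairs with *Slc7a11* and with other amino acid transporters, fell from 540 ± 87.8 to 264 ± 6.05 CPM (log2 fold change -1.03, SE 0.13, adjusted p = 0.000621). *Atf4*, the amino acid stress factor, was at 707 and 733 CPM (0.052, adjusted p = 0.767), and its sign turned without replicate 3 (-0.050) or 11 (-0.012). Over the 6 lists, 88 of 108 genes were tested, and 33 were higher and 18 lower, or 58.0% called beside 44.2% of all genes tested.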

How the data were processed

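RNA of sorted GFP+ bone marrow cells was sequenced by the authors with TruSeq libraries on an Illumina NovaSeq instrument. The authors deposited 1 table of raw read counts per Ensembl gene, and FPKM made by the authors with a gene length and a scaled library size. The submitters' processing notes name Bowtie 0.12.0 and mm8, while the deposited coordinates are those of GRCm38 (98.33% of genes have the same start and end in GENCODE M21) and are given as such. The counting tool, annotation and strand are not given in the sources used here. Without strand, reads of overlapping genes cannot be told apart. The deposited group means (signal), log2 fold changes and p-values of the authors' DESeq2 comparison were not used. Columns not mapped to a sample numbered 0.

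Counts were tested with edgeR 4.0.16 in R 4.3.3 (filterByExpr, TMM, quasi-likelihood test, 2-sided, Benjamini-Hochberg, threshold 0.05) in all 6 libraries with no covariate. The standard error is the log2 fold change over the root of F. FPKM was used for levels between genes and for ratios, which were tested by exact permutation. A count of 0 allows up to 3 counts, or 0.175 to 0.204 CPM per library, for counting error only. Alternatives were DESeq2 1.42.0, its size factors, no filter on low counts, limma 3.58.1 on log2(FPKM + 1), a minimum of 10 counts in each library, adjusted p under 0.01 and 0.1, at least 2-fold, and leaving out each library. Scripts were tested on simulated counts.

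The members and the gene lists were chosen with earlier results of these data known. Named were *Phf6*, the members and, in each further list, the 2 genes with the highest mean FPKM and the 3 called genes with the largest change. *Bach1*, *Bach2*, *Mafg*, *Mafk*, *Maff*, *Fbxw11*, *Gsk3b*, *Rbx1*, *Cul3*, the ratios and the look at replicate 1 were chosen after values were seen.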

Additional observations from a re-analysis of the deposited data

How the results depend on the processing

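No paired analysis was possible because the groups share no replicate numbers. Of 139 combinations of a member and an alternative, 124 kept their direction and their side of the threshold, 11 lost the call, 3 gained it and 1 turned sign (*Slc7a11* without replicate 11, -0.47, in a range of -0.47 to 0.70). For the other 24 named genes, 302 of 331 combinations kept both, 25 lost the call, 2 gained it and 2 turned sign (*Atf4*, -0.050 without replicate 3 and -0.012 without replicate 11, in a range of -0.050 to 0.15). A threshold of 0.01 left 1690 genes higher and 2110 lower instead of 3047 and 3213. The lower genes were then 1 of the NRF2 partners, 2 of the glutathione and 1 of the thioredoxin list, and the higher genes 5 of the thioredoxin and 1 of the NADPH list. With at least 2-fold required, 1410 genes were higher (9.95%) and 1625 lower (11.5%), and 0 members were higher and 1 lower, against 3 and 4. The lists then held 2 higher and 1 lower (partners), 5 and 2 (glutathione), 3 and 1 (thioredoxin) and 0 and 2 (NADPH). Heme and iron handling then held 3 higher and 1 lower, and cysteine supply 0 higher and 1 lower. With at least 10 counts in every library, 1 thioredoxin gene was lower. When each library was left out in turn, 2179 to 3132 genes were higher and 2511 to 3338 lower, always 3 members were higher and 3 to 5 lower. The partners then held 2 to 3 lower (2 without replicate 1, 11 or 13), the glutathione list 3 to 7 lower (3 without replicate 11 or 13), the thioredoxin list 1 to 3 lower (1 without replicate 12) and the NADPH list 1 to 2 higher (1 without replicate 1, 2 or 12). The heme and iron list held 4 to 5 higher, against 6 with all 6 libraries. *Phf6* ran from -1.76 to -1.59. A stricter threshold leaves fewer calls by construction, and the cause of the other shifts was not tested. Leaving out replicate 3 of *WT Phf6,RE9a* gave the highest counts, 3132 and 3338. Scaling by TMM or by size factors left the median of all genes at 0.013 and 0.0021. On log2(FPKM + 1) with limma, genes of low level kept their call with smaller values, such as *Gsta3* (1.05), *Msrb3* (-0.77), *Glrx* (0.87), *Slc40a1* (0.84), *Mgst1* (1.44) and *Txnrd3* (1.30).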

Other observations

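Some enzymes of the mitochondrial branch of the thioredoxin and glutaredoxin systems, picked after their values were seen, were higher in *VC Phf6,RE9a* cells while cytosolic *Txnrd1* was lower. *Txn2*, mitochondrial thioredoxin, was at 81.5, 61.4 and 79.5 CPM in *WT Phf6,RE9a* and 154, 147 and 153 CPM in *VC Phf6,RE9a* libraries, without overlap (log2 fold change 1.03, adjusted p = 0.000445 from edgeR). *Txnrd2*, its reductase, was at 45.7, 42.2 and 45.5 CPM against 70.4, 77.5 and 80.6 CPM (log2 fold change 0.78, adjusted p = 0.000463 from edgeR). *Glrx2* (0.59, adjusted p = 0.00580) and *Glrx5*, which serves iron-sulfur cluster assembly (0.64, adjusted p = 0.00250), were called higher too. *Sod2*, the mitochondrial superoxide dismutase, had a log2 fold change of 0.16 (adjusted p = 0.211), and *Prdx5*, found in mitochondria and elsewhere, of -0.05 (adjusted p = 0.819), so not all mitochondrial enzymes of the lists passed. Cytosolic *Txn1* had a log2 fold change of 0.27 (adjusted p = 0.0588). Other cytosolic enzymes of the lists went both ways, with *Gpx1* (1.39), *Prdx2* (1.44) and *Glrx* (2.28) called higher and *Sod1* (-0.29) called lower. The rise was therefore not particular to mitochondrial enzymes. Erythroid marker sums of 1643 to 2411 against 5563 to 6527 CPM moved with the mitochondrial genes called higher, and their part was not tested.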
